A study of Mus musculus with 8 samples.

Results

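Gene-dense bins were stretches of about 50 kb, on the autosomes of the mouse genome (build GRCm38), that held 5 or more starts of protein-coding genes in the GENCODE M21 annotation, and their contacts with each other were followed through B cell activation. Genes whose symbols begin with Olfr, Vmn, Hist, Pcdh or Hox were not counted. The rule used gene positions alone and no contact value, and it found 210 bins among 48088 autosomal bins, or 0.437% of them, which held 1185 of 19177 counted starts (6.18%). Of the 210, 208 were kept for contacts. The bins chr2:83950155-83999781 and chr10:104149978-104200056, which hold only predicted genes with Gm symbols, were left out because their coverage was 0.0740 and 0.0299 of the median bin. The threshold left 309 bins with 4 starts just outside and 135 with 5 starts just inside.

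The assay was in situ Hi-C. Here chromatin is fixed in the nucleus, cut with the enzyme MboI and religated, so that each sequenced read pair joins 2 places that lay close together. The cells were splenic B cells from mice labelled as young adult male C57BL/6, isolated as naive cells and stimulated in culture with 25 µg/ml lipopolysaccharide (LPS), a bacterial product that activates B cells. All 4 groups carried this treatment, with 2 libraries each, numbered as replicates: 3 h after stimulation, 10 h, 33 h, just ahead of the first division (imminent division), and 33 h in cells that had not entered S phase (pre-S). The cells at 3 h, 10 h and imminent division were sorted as activated and undivided cells of C57BL/6 mice, whereas the pre-S cells came from FUCCI mice, whose fluorescent reporters follow the cell cycle, and were gated for G1, so genotype and gate changed together with this group and their parts cannot be told apart. At imminent division the sort did not select a phase of the cell cycle. No unstimulated cells were analysed here, and contact maps hold no expression, so the B cell label was not checked against marker genes. The methods call the libraries biological replicates, but neither they nor the labels say whether these came from separate animals, so p-values measure only the spread between these libraries.

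The libraries held between 88703088 and 218945191 read pairs, the highest totals being those at imminent division. Of the read pairs, 70.9% to 75.1% joined places on the same chromosome. The second imminent division library stood apart in its sex chromosomes, with 3.74% of read ends on X against 2.39% to 2.84% in the other 7 libraries, and 0.0490% on Y against 0.0804% to 0.123%. These shares go against a label of male mice alone for that library, and their cause was not tested. Only autosomes enter the results below, and the closing section gives the imminent division results without that library.

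Chromosomes fold so that gene-rich, transcribed chromatin, called the A compartment, meets other A chromatin more often than inactive B chromatin. Short segments crowded with housekeeping genes, which are rich in G and C, lie towards the inside of the nucleus and many of them gather around nuclear speckles, bodies that store splicing factors. Segments that hold tandem copies of tissue-specific genes, such as keratin-associated proteins of hair or taste receptors, count as gene dense too but are silent in most cell types.

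The members lay on all 19 autosomes. Chromosome 7 held the most, 31 bins, followed by chromosome 11 with 25 and chromosomes 10 and 17 with 18 each, whereas chromosome 12 held 1. Relative to its length chromosome 19 was densest, with 1.28% of its bins. Of the 208 kept members, 169 lay within 2 Mb of another member, in 38 runs. The fullest bin, chr4:88749901-88799208, carried 11 starts in the type I interferon cluster (Ifnz and 10 predicted genes). It was followed by chr19:6050035-6099920 with 10 starts, among them Cdca5, which encodes sororin, a factor that holds sister chromatids together, Fau, which encodes a ribosomal protein precursor, and the mitochondrial ribosomal protein gene Mrpl49. A further 4 bins held 9 starts: chr2:25199975-25249877 (Nelfb, Tubb4b), chr7:30549819-30600040 (Kmt2b, U2af1l4, Psenen), chr19:8849846-8899620 (Ints5, Ganab, Ubxn1) and chr9:3000001-3049479, which carries predicted genes only.

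By a rule on gene symbols (3 or more starts and at least 50% of them sharing their first 3 letters, predicted genes not counted), 25 kept members were tandem-family bins and 183 were mixed. The rule does not see families whose copies carry Gm symbols, so the interferon bin with 11 starts counted as mixed. Shared letters were not checked for shared sequence, so a bin such as that of the Surf genes counts as tandem-family by name alone. A compartment call came from the leading component of the contact correlations of each chromosome over the summed libraries. On each chromosome the side that went with more gene starts was named A. The call put 197 of the 208 (94.7%) in A, against 48.8% of all kept bins and 80.6% of the bins with 1 to 4 starts. The direction of this difference was thus set in advance by the naming. The 11 members in B held keratin-associated protein genes (chr11:99549876-99599786 and its neighbours, and a pair of bins on chromosome 16), small proline-rich proteins of skin (Sprr2i), taste receptors (Tas2r107), trace amine receptors (Taar5), placental genes (Tpbpa) and the predicted genes of chr9:3000001-3049479. In base composition the mixed members were richer in GC than most bins. Their median GC content was 50.3%, against 45.0% for tandem-family members, 44.2% for bins with 1 to 4 starts and 40.3% for bins with none. The bins with 4 starts, just outside the threshold, came close with 48.3% (from 42.6% to 52.1% between the 10th and the 90th percentile, against 46.0% to 53.3% for mixed members). Repeats covered a median of 25.3% of mixed members, 27.5% of bins with 4 starts and 32.4% of bins without a start.

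Promoter sequences were also read, at single genes. They are given for the first gene with a matched promoter (predicted genes left out) in each of the 3 members with the highest and the 3 with the lowest contact between chromosomes (below), from 250 bases before to 50 bases after the RefSeq start in GRCm38, 5′ to 3′, with every CG dinucleotide in capitals.
Tbc1d10b, chr7:127208419-127208718, minus strand: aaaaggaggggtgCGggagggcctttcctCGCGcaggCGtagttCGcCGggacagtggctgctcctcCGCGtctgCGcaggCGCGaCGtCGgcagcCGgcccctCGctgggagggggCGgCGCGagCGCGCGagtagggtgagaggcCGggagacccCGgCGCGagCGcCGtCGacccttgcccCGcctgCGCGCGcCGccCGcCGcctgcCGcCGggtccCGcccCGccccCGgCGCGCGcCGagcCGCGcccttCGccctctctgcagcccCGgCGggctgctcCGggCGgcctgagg
Daxx, chr17:33909195-33909494, plus strand: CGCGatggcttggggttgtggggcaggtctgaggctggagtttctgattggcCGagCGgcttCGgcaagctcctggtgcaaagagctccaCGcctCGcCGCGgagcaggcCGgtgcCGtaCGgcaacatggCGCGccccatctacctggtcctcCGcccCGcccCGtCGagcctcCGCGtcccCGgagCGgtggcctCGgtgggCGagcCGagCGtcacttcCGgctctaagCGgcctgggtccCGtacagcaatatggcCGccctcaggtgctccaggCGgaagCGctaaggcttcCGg
Mvp, chr7:127014545-127014844, minus strand: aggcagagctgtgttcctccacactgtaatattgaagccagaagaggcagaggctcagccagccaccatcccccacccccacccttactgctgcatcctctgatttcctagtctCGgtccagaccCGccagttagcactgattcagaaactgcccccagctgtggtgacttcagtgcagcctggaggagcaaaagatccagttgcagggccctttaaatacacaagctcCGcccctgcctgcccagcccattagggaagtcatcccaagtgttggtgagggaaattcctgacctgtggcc
Sprr2i, chr3:92407741-92408040, plus strand: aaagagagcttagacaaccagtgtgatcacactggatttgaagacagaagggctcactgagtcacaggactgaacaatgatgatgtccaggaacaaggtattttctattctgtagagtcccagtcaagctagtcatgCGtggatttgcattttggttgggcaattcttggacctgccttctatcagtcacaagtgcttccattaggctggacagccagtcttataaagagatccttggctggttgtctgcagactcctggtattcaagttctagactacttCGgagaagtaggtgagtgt
Krtap22-2, chr16:89010710-89011009, minus strand: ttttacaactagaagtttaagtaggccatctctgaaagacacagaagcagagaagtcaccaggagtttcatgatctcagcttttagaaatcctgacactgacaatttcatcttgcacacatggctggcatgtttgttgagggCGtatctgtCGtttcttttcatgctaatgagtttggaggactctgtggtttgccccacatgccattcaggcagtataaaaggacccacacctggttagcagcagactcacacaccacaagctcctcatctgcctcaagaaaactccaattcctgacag
Tas2r107, chr6:131660100-131660399, minus strand: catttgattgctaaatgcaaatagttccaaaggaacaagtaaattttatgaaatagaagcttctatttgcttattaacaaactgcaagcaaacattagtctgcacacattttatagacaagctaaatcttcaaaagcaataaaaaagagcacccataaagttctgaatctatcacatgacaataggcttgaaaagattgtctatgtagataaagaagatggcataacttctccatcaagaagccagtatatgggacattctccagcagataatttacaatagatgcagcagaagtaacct

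Tbc1d10b, a GTPase-activating protein gene, had 51 CG dinucleotides in these 300 bases, and Daxx, which encodes a histone chaperone, had 33. Mvp, which encodes the major vault protein, had 3. The promoter of Sprr2i had 2 and that of Krtap22-2 had 2, and that of the bitter taste receptor gene Tas2r107 had 0. The letters GGGCGG, searched on both strands, were found in the first 3 and in none of the last 3, and TATAAA, searched likewise, only in the last 3. Over all members the picture was mixed: of 1172 starts in kept members, 850 matched a promoter by symbol and position, with a median of 15 CG, and 50.8% of them held GGGCGG, against 53.0% of the 14045 matched promoters of autosomal bins. The share in members was thus not above that of other genes. The contrast lay within the members: 55.2% of 734 promoters in mixed bins held GGGCGG against 23.3% of 116 in tandem-family bins, and TATAAA was found in 8.72% and 28.4%. No test was made of these shares.

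Contact was given as observed over expected read pairs. The expected number for a pair of bins came from how many contacts each bin made in all (by balancing) and, for bins of one chromosome, from the mean for that chromosome and distance, or else from the mean for that pair of chromosomes. A ratio of 1 is therefore the average for the genome at that distance, and more contacts in all do not by themselves raise a bin above it. Balancing took contacts within and between chromosomes together. A bin that sends a larger share of its contacts to other chromosomes can therefore rise in the ratio between chromosomes. By group mean, members sent 33.6% to 38.9% of their read pairs there, against 27.7% to 31.1% for all bins.

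Between chromosomes, members met each other 5.48 to 7.07 times the expected number. The ratios of the 2 replicates were 6.58 and 7.07 (3 h), 6.49 and 6.47 (10 h), 5.77 and 5.59 (imminent division) and 6.34 and 5.48 (pre-S), from 3601 to 8346 read pairs per library over 19914 pairs of bins. The group means were 6.83 ± 0.345, 6.48 ± 0.0154, 5.68 ± 0.128 and 5.91 ± 0.610 (SD, n = 2). Both libraries of imminent division lay below both of 10 h and both of 3 h, and so did both pre-S libraries relative to 10 h, but over the 4 groups the difference did not pass the test (exact permutation of the group labels, two-sided, p = 0.143, adjusted over 8 distance classes 0.190). With 105 distinct groupings of 8 libraries, the smallest p this design allows is 0.00952. Bins of the A compartment with fewer than 5 starts had ratios between 1.57 and 1.63 with each other. On the log2 scale members exceeded them by 2.08 ± 0.05 (3 h), 2.02 ± 0.00 (10 h), 1.83 ± 0.03 (imminent division) and 1.89 ± 0.12 (pre-S), a difference among groups that did not pass either (exact permutation p = 0.0667, adjusted 0.122).

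**Figure D1:**
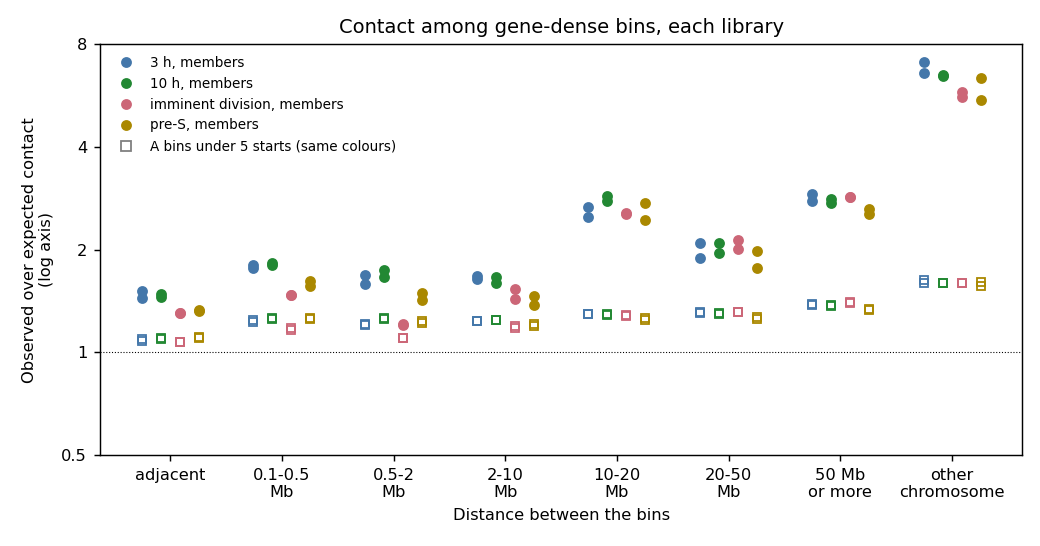
Observed over expected contact (vertical axis, log scale) by distance between the bins, for each of the 8 libraries coloured by group. Filled circles are pairs of gene-dense bins and open squares pairs of A-compartment bins with under 5 starts; the circles lie above the squares in every distance class, most of all between chromosomes, and at 0.5 to under 2 Mb the imminent division circles lie lowest, at 1.20 and 1.21.

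Contact between chromosomes was higher in bins with more starts. Bins with 1 start each met at 1.35 times the expected number (mean over the 8 libraries, range 1.32 to 1.39), bins with 2 starts at 2.03, with 3 at 3.02 and with 4 at 4.14 (range 3.78 to 4.56). Just inside the threshold, the 135 bins with 5 starts met at 5.81 (range 5.04 to 6.49), the 38 with 6 at 6.32 (range 5.85 to 7.14) and the 35 with 7 or more at 8.10 (range 6.63 to 9.23). The ranges of 5 and 6 starts overlapped, and so did those of 6 starts and 7 or more. Within members, however, the number of starts ordered single bins poorly (Spearman's rho 0.0847 over 208 bins, as a description). GC content ordered them better (rho 0.598). The coverage of a bin by read pairs between chromosomes had a rho of 0.569 with the same contact. This coverage includes the read pairs counted in the contact. How GC content and coverage go together over the members was not computed.

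**Figure D2:**
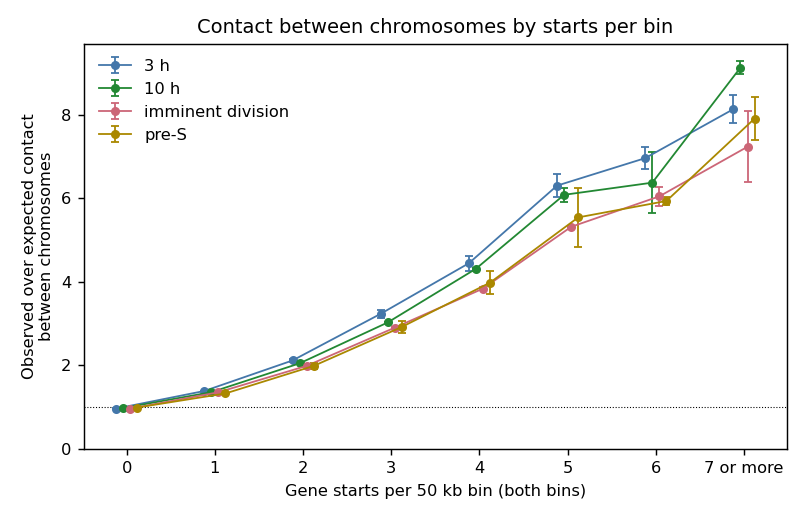
Observed over expected contact between chromosomes (vertical axis) for pairs of bins with the same number of gene starts (horizontal axis); points are group means and bars the SD of 2 libraries. The ratio climbs with every added start, from 0.972 without a start to 8.10 with 7 or more over all libraries, and the imminent division means lie below those of 10 h at every number of starts, with libraries that overlap at 1 and at 6 starts.

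Members differed widely among themselves. Summed over the 8 libraries, the contact of a member with members of other chromosomes ran from 0.189 to 11.6 times expected, with a median of 6.34, and 136 of 208 lay at 5 or above. The highest was chr7:127200134-127249859, which holds Tbc1d10b, Zfp771, the muscle myosin light chain gene Mylpf and the septin gene Sept1, at 11.6 (726 read pairs). Its ratio was 13.3 and 16.02 (3 h), 11.8 and 11.4 (10 h), 10.4 and 9.45 (imminent division) and 11.8 and 10.5 (pre-S), so that both replicates of 3 h lay above all other libraries. Next came chr17:33899551-33950076 at 11.5, with Daxx and the tapasin gene Tapbp, which loads peptides on MHC class I molecules, and chr7:127000004-127049933 at 11.03, with Mvp, the zinc finger gene Maz and the kinesin gene Kif22. At the other end, the Sprr2i bin chr3:92400094-92450487 stood at 0.189, from 8 read pairs in all, the Krtap22-2 bin chr16:88999952-89049957 at 0.213, from 13, and the Tas2r107 bin chr6:131649867-131699887 at 0.244, from 12. Each of these is in B, and its promoter sequence is among those shown above.

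Compartment and kind of gene went together with this order. The 197 members in A had a median of 6.48 and the 11 in B a median of 0.409, with 10 of the 11 under 1. Mixed members had a median of 6.63 and tandem-family members of 1.69. The 18 tandem-family members in A ran from 0.626 to 9.66. The following were chosen after their values were seen. The bin chr17:35050106-35099565 (Ly6g6c and its relatives) stood at 9.66, chr17:34949989-35000010 (the heat shock genes Hspa1a and Hspa1b) at 9.41 and chr2:26900145-26950053 (the Surf genes and the ribosomal protein gene Rpl7a) at 8.97. The alpha globin bin chr11:32249973-32300139 stood at 1.69, the interferon alpha bin chr4:88799205-88850041 at 1.86, the kallikrein bin with Klk8 at 1.22 and the chemokine bin with Cxcl5 and Pf4 at 0.626. The full interferon bin with 11 starts had 1.31 from 26 read pairs, and the Cdca5 bin with 10 starts had 9.99 from 962. These values are descriptions, since all bins share the same 8 libraries.

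**Figure D3:**
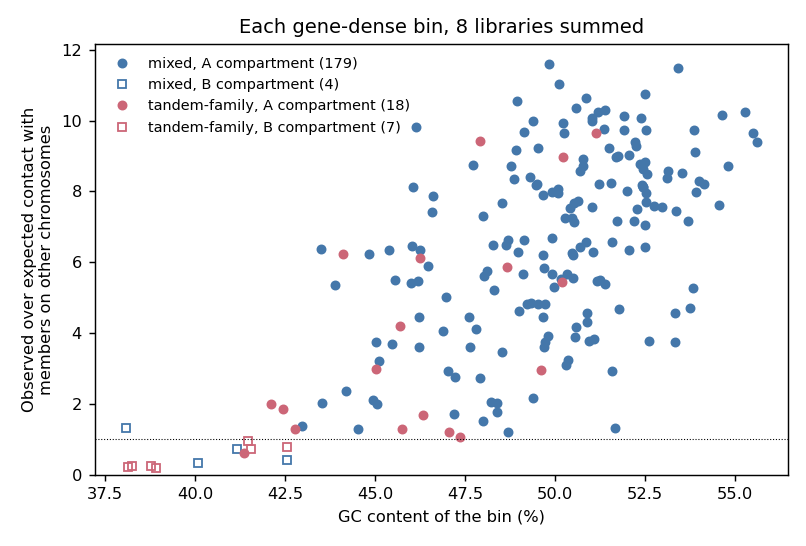
Contact of each of the 208 gene-dense bins with gene-dense bins of other chromosomes (vertical axis, observed over expected, 8 libraries summed) against GC content in percent (horizontal axis), by kind and compartment. Open squares, the 11 bins in B, lie at the lower left with 10 of them under 1, and mixed bins in A fill the upper right up to 11.6.

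The split by kind held between the sets. Mixed members met each other between chromosomes at 7.33 and 7.96 times expected (3 h), 7.28 and 7.18 (10 h), 6.49 and 6.28 (imminent division) and 7.09 and 6.09 (pre-S). Mixed members met tandem-family members at 3.01 to 3.84 in the 8 libraries. Tandem-family members met each other at 1.34 to 2.83, from 14 to 27 read pairs a library, too few to order the groups. With bins of the B compartment that hold no start, members made fewer contacts than expected in every library, and this ratio was higher at 33 h: 0.317 and 0.299 (3 h), 0.316 and 0.321 (10 h), 0.396 and 0.389 (imminent division) and 0.344 and 0.401 (pre-S). All 4 libraries of 33 h lay above all 4 earlier ones. Compartments were called from the same libraries and nearly all members are in A, so a level under 1 was largely set in advance.

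Chromosomes took unequal part. Over the 69 pairs of chromosomes with 100 or more member pairs, the ratio of the summed libraries ran from 2.29 to 10.2 with a median of 6.41. The 3 highest were chromosomes 17 and 19 at 10.2 (8.84 to 11.9 in single libraries, 1995 read pairs), 3 and 19 at 9.45 (6.27 to 11.6) and 7 and 19 at 9.29 (7.91 to 11.9). The 3 lowest were 11 and 16 at 2.29 (1.49 to 2.70, 80 read pairs), 6 and 11 at 3.04 (2.05 to 4.74) and 7 and 16 at 3.15 (2.38 to 4.196). Chromosome 16 has 4 members, of which 2 are the keratin-associated protein bins in B, and chromosome 11 has 4 such bins. At imminent division 52 of the 69 pairs had a lower ratio than at 10 h, and at pre-S 46 had. By single members, 158 of 208 were lower at imminent division than at 10 h and 135 at pre-S. Between 3 h and 10 h the ratio was lower at 10 h in 141 of 208, so such a majority was not particular to 33 h. These counts are descriptions, since the pairs share bins and libraries.

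Of the gene lists used here, members held 3 of 22 genes of the B cell receptor and surface (13.6%), 2 of 26 B cell transcription factors (7.69%), 2 of 25 cell cycle genes (8%), 12 of 74 listed cytoplasmic ribosomal protein genes (16.2%) and 2 of 34 genes with an H2- symbol (5.88%), beside the 6.18% of all counted starts. The ribosomal list was drawn up by symbol and left out Fau and Rplp2, which lie in members. Cd37, a tetraspanin of B cells, lay in chr7:45199760-45250410 with a ratio of 9.99 over the summed libraries. Cd79a, the signalling chain of the B cell receptor, lay with the ribosomal protein gene Rps19 in chr7:24849956-24900058 at 6.64, and Fcer2a, the low-affinity IgE receptor CD23, in chr8:3650235-3699781 at 4.06. Of the transcription factors, the AP-1 gene Junb lay in chr8:84950275-84999977 at 8.59 and the NF-kappaB gene Nfkb2 in chr19:46299791-46349928 at 7.16. Mcm7, a subunit of the replicative helicase, lay in chr5:138150417-138200773 at 7.30. Of the ribosomal protein genes, Rps29 lay in a bin of chromosome 12 at 2.37 and Rps16 in chr7:28349986-28400000 at 9.38. Of the genes with H2- symbols, H2-Ke6 lay at 9.22 and H2-M5 at 2.12. All of these bins were in A.

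The Fcer2a bin, singled out after its values were seen, had ratios of 5.45 and 5.68 (3 h), 4.69 and 5.17 (10 h), 3.70 and 2.74 (imminent division) and 3.27 and 2.12 (pre-S). All 4 libraries of 33 h lay below the 4 earlier ones, though the log2 differences from 10 h, -0.65 at imminent division (edgeR adjusted p = 0.242) and -0.88 at pre-S (edgeR adjusted p = 0.439), did not pass. None of the member bins that hold a listed gene passed the test of single bins described next.

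Single bins were tested for their contact with members of other chromosomes, with edgeR's quasi-likelihood test on the read-pair counts and the expected counts as offsets, over the 14708 kept bins with a mean of 10 or more read pairs. These counts were low, and few bins passed at a false discovery rate (FDR) of 5% anywhere: 0.0068% of all bins for 10 h against 3 h, 0.0612% for imminent division against 10 h, 0.0068% for pre-S against 10 h and 0.0068% for imminent division against pre-S. Of 189 members tested, 2 passed, both lower at imminent division than at 10 h, and none passed in the other 3 contrasts. At an unadjusted p under 0.05 in edgeR, 37 members were lower at imminent division than at 10 h (19.6%, beside 6.12% of all bins) and 2 higher (1.06% beside 4.82%). At pre-S against 10 h 16 were lower (8.47% beside 3.18%) and 0 higher (beside 4.33%). The shares of the other contrasts lay nearer to those of all bins: 12 lower (6.35% beside 4.54%) and 1 higher (0.529% beside 2.32%) at 10 h against 3 h, and 8 lower (4.23% beside 3.96%) and 2 higher (1.06% beside 2.04%) at imminent division against pre-S. DESeq2 called none of the members in any contrast, and 0 of all 14708 bins. At an unadjusted p under 0.05 in either direction it counted 3 at 10 h against 3 h (1.59% beside 1.1% of all bins), 12 at imminent division against 10 h (6.35% beside 1.74%), 3 at pre-S against 10 h (1.59% beside 1.52%) and 0 at imminent division against pre-S (beside 0.714%). A read pair between 2 members counts for both bins, so member bins are not independent of each other and their shares are descriptions. The median log2 difference of the members between imminent division and 10 h was -0.19, beside -0.03 over all bins tested, and between pre-S and 10 h it was -0.13 beside 0.02. The pre-S value rested on single libraries, being -0.24 (beside -0.02) without the first pre-S library and -0.0082 (beside 0.04) without the second.

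The first of the 2 was chr11:106749901-106799894, which holds Ddx5, an RNA helicase gene, the adhesion molecule Pecam1, Milr1, Polg2 and Cep95. Its ratio was 8.93 and 7.17 (3 h), 6.37 and 8.92 (10 h), 4.73 and 4.14 (imminent division) and 7.48 and 5.02 (pre-S). Both imminent division libraries lay below all others, with a log2 difference from 10 h of -0.82 (edgeR adjusted p = 0.0373). The second was chr7:24500040-24550193, with the DNA repair gene Xrcc1 and Irgq, at 5.56 and 6.91, 8.16 and 6.38, 3.76 and 3.82, and 5.78 and 4.62 in the same order. Here too the imminent division libraries were the lowest, with a log2 difference of -0.91 (edgeR adjusted p = 0.0446). Neither count was firm, since the 2 calls became 0 without either 3 h library, without the second 10 h library or without either imminent division library, and 1 without the first 10 h library.

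On the same chromosome, members lay above expectation in every distance class. Adjacent members met at a mean of 1.48 times expected (3 h), 1.47 (10 h), 1.31 (imminent division) and 1.33 (pre-S). From 10 to under 20 Mb the means were 2.58, 2.82, 2.55 and 2.58, and at 50 Mb or more 2.84, 2.77, 2.85 and 2.58. Up to 2 Mb the lower values at 33 h stood out from the spread between replicates. From 100 kb to under 0.5 Mb the ratio was 1.77 and 1.80 (3 h), 1.83 and 1.81 (10 h), 1.48 and 1.47 (imminent division) and 1.62 and 1.56 (pre-S) (p = 0.00952, the smallest this exact permutation test can give, adjusted 0.0762). From 0.5 to under 2 Mb it was 1.68 and 1.59 (3 h), 1.66 and 1.75 (10 h), 1.20 and 1.21 (imminent division) and 1.49 and 1.43 (pre-S) (exact permutation p = 0.0190, adjusted 0.0762). In both classes the 33 h libraries lay below all earlier ones and imminent division lay below pre-S, but no class passed after adjustment over the 8. From 100 kb to under 0.5 Mb the order of the 33 h groups was not seen in other measures: the excess over A-compartment bins with fewer than 5 starts was 0.33 ± 0.01 at imminent division and 0.34 ± 0.03 at pre-S on the log2 scale (SD, n = 2), and the median log2 difference of tested member pairs between them was 0.05. A-compartment bins with fewer than 5 starts moved the same way from 0.5 to under 2 Mb, from 1.25 and 1.26 at 10 h to 1.10 at imminent division in both replicates. The excess of members over them on the log2 scale was 0.44 ± 0.04 at 10 h and 0.13 ± 0.00 at imminent division (n = 2, exact permutation p = 0.0286 over the 4 groups, adjusted 0.102).

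At 2 to under 10 Mb the group means were 1.66 ± 0.0276, 1.63 ± 0.0488, 1.49 ± 0.0706 and 1.42 ± 0.0566 in the order of 3 h, 10 h, imminent division and pre-S (SD, n = 2), the 4 libraries of 33 h lying below the 4 earlier ones (exact permutation p = 0.0476, adjusted 0.0952). Beyond 20 Mb imminent division was not lower: at 20 to under 50 Mb its libraries, 2.01 and 2.14, lay within the range of the 10 h ones, 2.09 and 1.95, or just above, and at 50 Mb or more they were 2.85 and 2.84 against 2.81 and 2.73. The pre-S libraries were the lowest at 50 Mb or more, 2.62 and 2.55 (exact permutation p = 0.0762, adjusted 0.122).

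When single bins were tested for contact with members 2 Mb or more away on the same chromosome, 10645 bins were tested, of which 0.0% passed for 10 h against 3 h, 0.0845% for imminent division against 10 h, 0.0% for pre-S against 10 h and 0.00939% for imminent division against pre-S. Of 173 members tested, 1 passed, at imminent division against 10 h, and none in the other 3 contrasts. At an unadjusted p under 0.05 in edgeR, 8 members were higher (4.62%) and 10 lower (5.78%) at imminent division than at 10 h, near the 5.5% and 4.3% of all bins. At 10 h against 3 h 9 were higher (5.2% beside 2.76%) and 5 lower (2.89% beside 3.02%), at pre-S against 10 h 1 was higher (0.578% beside 3.56%) and 16 lower (9.25% beside 3.75%), and at imminent division against pre-S 9 were higher (5.2% beside 3.95%) and 1 lower (0.578% beside 2.68%). The member that passed was chr10:77750519-77799872, an array of 8 predicted genes. It had 0.538 and 0.548 times the expected contact (3 h), 0.233 and 0.261 (10 h), 0.861 and 0.714 (imminent division) and 0.551 and 0.485 (pre-S), with 6 to 31 read pairs a library, so that 10 h lay lowest and imminent division highest (log2 difference 1.63, edgeR adjusted p = 0.0223). The call was lost without any one of the 10 h and imminent division libraries. DESeq2 called no member in any contrast, and of all bins only 1, at imminent division against 10 h. At an unadjusted p under 0.05 in either direction it counted 1 at 10 h against 3 h (0.578% beside 0.319% of all bins), 2 at imminent division against 10 h (1.16% beside 1.05%), 4 at pre-S against 10 h (2.31% beside 0.986%) and 0 at imminent division against pre-S (beside 0.77%). In this test too a read pair between 2 members counts for both bins.

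Differential interactions (DIs), the pairs of bins on one chromosome whose read pairs changed between groups, were tested over 1457849 bin pairs with enough counts at FDR 5%. The background filter, loess offsets and edgeR test followed the study's methods, but the fit held these 8 libraries alone, bins were left out by coverage and undetermined sequence in place of the study's excluded regions, and adjacent DIs were not merged into clusters. Of 399 pairs that join members, 43 were weaker at imminent division than at 10 h and 0 were stronger. Over all bin pairs 1.32% were weaker and 0.691% stronger in that contrast, and among the members 10.8% were weaker. At an unadjusted p under 0.05 in edgeR, 146 member pairs were weaker (36.6%, beside 7.92% of all pairs) and 2 stronger (0.501% beside 7.65%). At pre-S against 10 h, 8 of the 399 were weaker (2.01%) and 0 stronger, beside 0.255% and 0.339% of all pairs, with 117 weaker (29.3% beside 5.89%) and 0 stronger (beside 5.63%) at an unadjusted p under 0.05 in edgeR. At imminent division against pre-S, 2 were weaker and 0 stronger, beside 0.214% and 0.146%, with 25 weaker (6.27% beside 4.6%) and 22 stronger (5.51% beside 5.29%) at an unadjusted p under 0.05 in edgeR. At 10 h against 3 h none passed in either direction, beside 6.86e-05% weaker and 0.000549% stronger over all pairs, with 6 weaker (1.5% beside 2.79%) and 22 stronger (5.51% beside 3.14%) at an unadjusted p under 0.05 in edgeR. The calls depended on the tool and on single libraries. With the same offsets DESeq2 called none of the 399 in any contrast, and 41 of all pairs at imminent division against 10 h. At an unadjusted p under 0.05 it counted 65 weaker (16.3%, beside 2.11% of all pairs) and 0 stronger member pairs (beside 1.27%) in that contrast, and 40 weaker (10.0% beside 1.41%) and 0 stronger (beside 1.43%) at pre-S against 10 h. It counted 6 weaker (1.5% beside 0.933%) and 4 stronger (1.00% beside 0.839%) at imminent division against pre-S, and 0 weaker (beside 0.346%) and 2 stronger (0.501% beside 0.437%) at 10 h against 3 h. The median log2 difference of the members in DESeq2, -0.39 at imminent division and -0.32 at pre-S, was that of edgeR. Without 1 library of 10 h or of imminent division, fewer than the 43 were called, and calls over all pairs fell too. The member median log2 difference was then -0.37 and -0.36 without the first and second 10 h library, beside 0.03 and 0.04 over all pairs. Without the first and second imminent division library it was -0.33 and -0.38, beside 0.03 and 0.02. At pre-S against 10 h, fewer or none of the 8 were called without 1 library of either group, with fewer calls over all pairs. The member median was -0.30 and -0.34 without the first and second 10 h library. It was -0.28 and -0.33 without those of pre-S, and the medians over all pairs ran from -0.02 to 0.01. With TMM factors in place of the loess offsets, 80 member pairs were weaker at imminent division (20.1%, beside 2.58% of all pairs) and 29 at pre-S (7.27%, beside 0.543%), and the weaker share of all calls at pre-S against 10 h went from 42.9% to 70.3%.

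**Figure D4:**
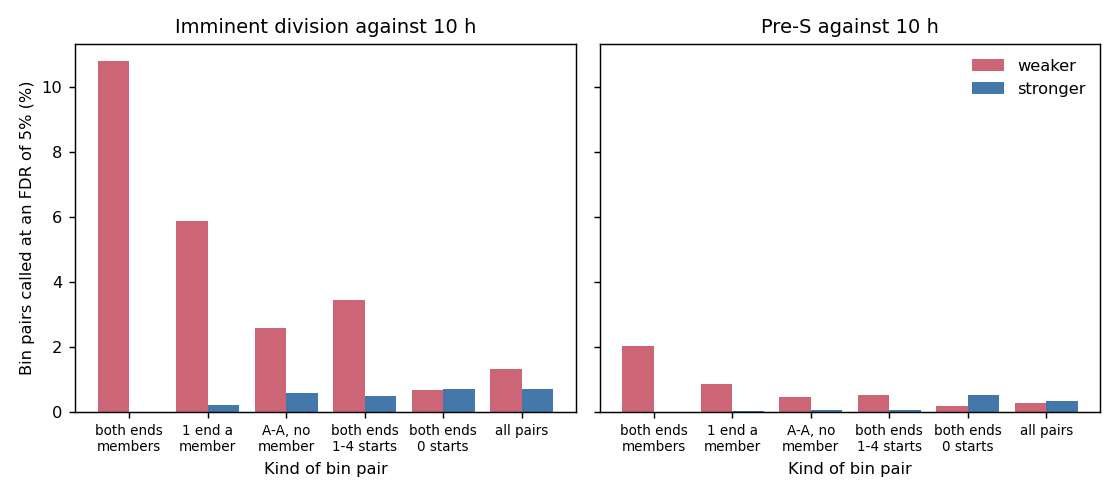
Percent of bin pairs called weaker (red) or stronger (blue) at an FDR of 5% (vertical axis, from 0) by kind of bin pair, for imminent division against 10 h (left) and pre-S against 10 h (right). Pairs of gene-dense bins have the highest bar for weaker contact in both panels, 10.8% and 2.01%, and none for stronger contact.

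The weaker share followed the gene content of the pair. At imminent division against 10 h it was 5.87% of the 11875 pairs with 1 end in a member, 3.44% of pairs whose ends both hold 1 to 4 starts, 2.59% of A-A pairs without a member and 0.672% of pairs whose ends hold no start. Weighted to the distances of the member pairs, the A-A share was 2.68%. The median log2 difference of the 399 member pairs was -0.39, beside 0.03 over all pairs and -0.12 over A-A pairs without a member, and 85.0% of the member pairs had a negative value. At pre-S against 10 h their median was -0.32, beside -0.01 and -0.16. By distance, of the 161 tested member pairs from 0.5 to under 2 Mb, 27 were weaker at imminent division (16.8%, median log2 difference -0.64), beside 1.70% of all pairs of that distance and 3.61% of A-A pairs without a member. Of the 124 from 100 kb to under 0.5 Mb 16 were (12.9%, median -0.23), beside 1.08% and 2.41%. Of the 29 adjacent pairs none was (median -0.12), beside 2.05% and 2.40%. The rest of the 399 lay 2 Mb or more apart, and none of them was called. These percentages are descriptions, since pairs share bins and both 33 h groups are set against the same 10 h libraries. Depth moved with the group: the imminent division libraries had the most read pairs, and 38.9% ± 0.215 of members' read pairs there went to other chromosomes, against 33.6% ± 0.466 at 10 h (SD, n = 2), beside 31.1% and 27.7% for all bins. Its part in the result was not tested.

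The 43 weaker pairs joined 59 of the members and lay on 10 chromosomes, 15 of them on chromosome 17 and 7 on chromosome 7. Their distances ran from 150 to 1350 kb with a median of 600 kb. Of the runs of members less than 2 Mb apart, the one with the most was chr17:33899551-37000089, which covers the major histocompatibility complex (MHC): 11 of its 36 tested pairs were weaker at imminent division, with a median log2 difference of -0.49, and 1 at pre-S. The run at the start of chromosome 19 (chr19:4000055-8899620, 13 members) had 4 of 58, that at chr17:23649997-25850176 had 4 of 16, that at chr10:75749969-81650043 had 4 of 33 and that at chr7:3599865-5050121 had 3 of 6. Among the runs without a weaker pair, chr7:24500040-30600040 had 0 of 19 with a median of -0.51, and chr8:70099891-71600038 had 0 of 10 with -0.48. The keratin-associated protein bins and their neighbours at chr11:99549876-101450153 had 0 of 7, with a median of -0.03. Single bins recurred: the Tnf bin chr17:35199808-35250693, which also holds Lta and the RNA helicase gene Ddx39b, the Daxx bin chr17:33899551-33950076 and the Stk11 bin chr10:80099683-80149880 were each in 4 of the 43. They had 9, 12 and 7 tested pairs in that order, and bins with fewer tested pairs could recur less. The bin chr7:140850417-140899790 had 2 weaker pairs of 2 tested.

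The smallest p belonged to the pair of chr7:3599865-3650048, with the splicing factor gene Prpf31, Cnot3, Ndufa3, Tfpt and Oscar, and chr7:4499952-4550422, with Ppp1r12c, the troponin genes Tnnt1 and Tnni3, Dnaaf3 and Syt5, 900 kb apart. It had 75.1 and 61.1 normalised read pairs (3 h), 92.8 and 92.0 (10 h), 35.6 and 42.1 (imminent division) and 75.9 and 90.9 (pre-S). Imminent division alone was low, and it lay below pre-S as well: the log2 difference was -1.24 ± 0.18 (SE) from 10 h (edgeR FDR 4.44e-07) and -1.08 ± 0.19 from pre-S (edgeR FDR 0.000122).

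The next joined a pair of bins of the MHC class III region 250 kb apart. The bin chr17:34849982-34900258 holds the complement genes C2 and Cfb, the histone methyltransferase gene Ehmt2 and Nelfe, and chr17:35099562-35149896 holds Bag6, Apom and Csnk2b. They had 105 and 86.3 normalised read pairs (3 h), 106 and 100.1 (10 h), 64.2 and 45.0 (imminent division) and 58.2 and 86.7 (pre-S). The groups of 10 h and imminent division did not overlap (log2 difference -0.93 ± 0.16, edgeR FDR 8.52e-05), and pre-S lay between them or with imminent division.

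The third joined chr19:5449675-5499839, with the cofilin gene Cfl1, the nuclease gene Mus81, Fibp and Efemp2, to the Cdca5 bin chr19:6050035-6099920, 600 kb away. The values were 45.9 and 48.8 (3 h), 57.2 and 54.5 (10 h), 26.3 and 22.9 (imminent division) and 28.9 and 43.3 (pre-S), with imminent division below every other library (log2 difference -1.18 ± 0.22 from 10 h, edgeR FDR 0.000265).

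**Figure D5:**
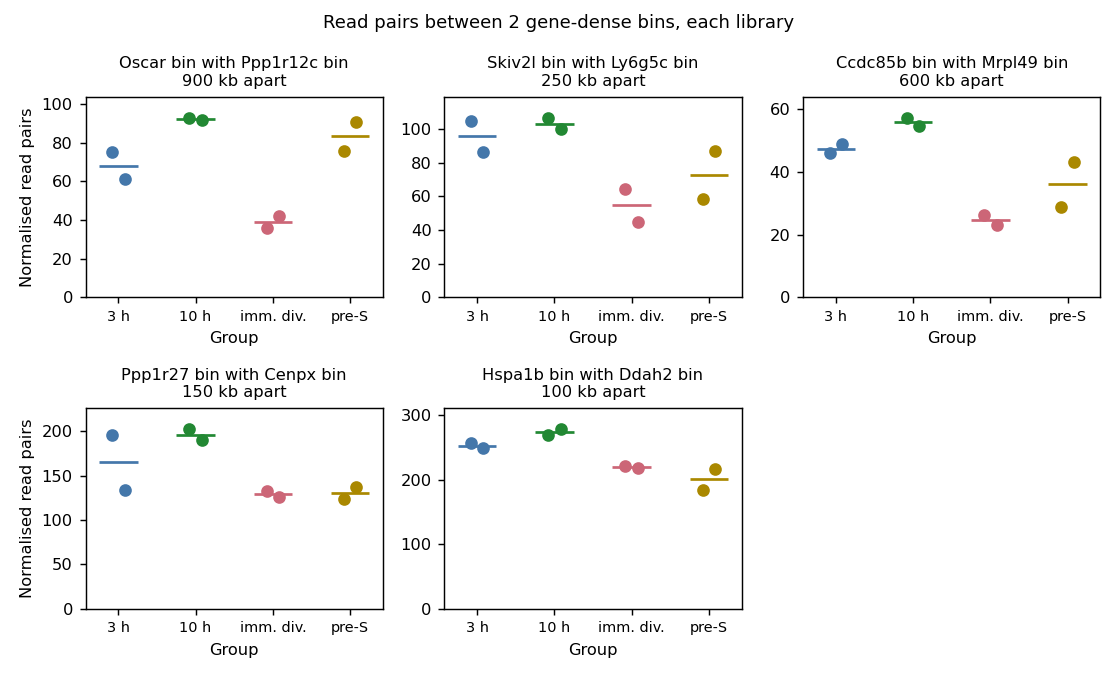
Normalised read pairs (vertical axis, from 0) in each library for the 3 pairs of gene-dense bins with the smallest p at imminent division against 10 h (top) and for 2 of the weaker pairs at pre-S against 10 h (bottom), named by the first gene of each bin; points are libraries and lines group means. The imminent division points lie below the 10 h points in all 5 panels, as in the Oscar and Ppp1r12c panel, 35.6 and 42.1 against 92.8 and 92.0.

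The 8 weaker pairs at pre-S lay from 50 to 1400 kb apart, with a median of 125 kb. Of all bin pairs, 262 adjacent ones, 1798 from 100 kb to under 0.5 Mb and 1481 from 0.5 to under 2 Mb were weaker at pre-S, against 965, 3978 and 13589 at imminent division, so shorter distances made up more of the weaker pairs at pre-S over all bins too. Of the member pairs, 3 of the 8 were also among the 43, which is 37.5% of the one list and 6.98% of the other. One of the 8 joined chr11:120549756-120599939 (P4hb, Arhgdia, Alyref, Anapc11) to chr11:120699835-120749896 (Rac3, Cenpx, Dcxr), 150 kb apart, with 196 and 134 normalised read pairs (3 h), 202 and 191 (10 h), 132 and 127 (imminent division) and 124 and 137 (pre-S). It was weaker in both groups of 33 h, by a log2 difference of -0.60 at imminent division (edgeR FDR 0.000579) and of -0.59 ± 0.13 at pre-S (edgeR FDR 0.00917). Another joined the heat shock bin chr17:34949989-35000010 to the Ly6g6c bin chr17:35050106-35099565, with 257 and 249.5 (3 h), 269.9 and 278 (10 h), 221 and 219 (imminent division) and 184 and 218 (pre-S) (log2 difference -0.46 ± 0.11 from 10 h, edgeR FDR 0.0199).

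Between imminent division and pre-S, beside the Prpf31 pair, the pair of the Daxx bin and the Tnf bin passed, 1300 kb apart. It had 39.7 and 15.7 normalised read pairs (3 h), 19.9 and 25.7 (10 h), 10.1 and 7.64 (imminent division) and 27.1 and 20.9 (pre-S). The imminent division libraries were the lowest, from 16 and 14 read pairs as counted, with a log2 difference from pre-S of -1.45 ± 0.36 (edgeR FDR 0.0266). The other 397 pairs of members did not pass in that contrast, and their number says nothing of likeness between the 33 h groups: the median log2 difference of the 399 was -0.02. It differed by distance, at -0.27 over the 161 pairs from 0.5 to under 2 Mb, 0.05 over the 124 from 100 kb to under 0.5 Mb and 0.06 over the 29 adjacent pairs, beside 0.00184, 0.09 and -0.08 over all bin pairs of these distances.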

How the data were processed

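The authors aligned in situ Hi-C reads to mm10 (GRCm38), assigned them to MboI fragments and removed duplicates and dangling ends with diffHic. They deposited, per library, the count of read pairs for each pair of fragment-based bins of about 50 kb, with no normalisation. The deposited counts were read by bin, and bins of outlying coverage or with over 10% undetermined sequence were left out. The members and gene lists were chosen with earlier results of these data known. Expected read pairs came from balancing (60 iterations) and the mean at each distance of a chromosome or for each pair of chromosomes. Groups came from the sample titles. The observed over expected ratios were tested by exact permutation over the 4 groups, adjusted by Benjamini-Hochberg. Single bins (mean count of at least 10) and bin pairs were tested with edgeR 4.0.16 quasi-likelihood fits over all of them, at an FDR of 5%, in R 4.3.3. Bin pairs under 1.5 Mb had their loess offsets fitted apart from the rest, as in the study's methods. DESeq2 1.42.0 was the alternative tool. The SE of a log2 difference was derived from its quasi-likelihood statistic. Ratios, compartments and promoters were computed in Python 3.11.15 with numpy 2.4.6, scipy 1.17.1 and pandas 2.3.3. The scripts were tested on simulated data with known changes. Libraries held 88703088 to 218945191 read pairs. Read pairs carry no molecular identifiers, so low counts limit single bins most. Named bins were the 5 with the most starts and those tied with them, those called in a test (up to 3 a direction and contrast, without overlap between groups), the 3 highest and 3 lowest chromosome pairs of at least 100 member pairs, and bins with a listed gene. The alternatives were other balancing, thresholds of 4 and 8 starts, all families counted, other bin filters, chromosome ends or weights, other offsets and filters, the replicate block, and each library left out. Promoter sequences are those of RefSeq in GRCm38.p6. One named bin pair and 1 listed bin are not reported here. Contacts of the X and Y chromosomes were not used here.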

Additional observations from a re-analysis of the deposited data

How the results depend on the processing

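The log2 ratio of imminent division over 10 h kept its direction in the distance classes below 20 Mb and between chromosomes under every alternative run. No class passed after adjustment in the main analysis (exact permutation over 4 groups). From 100 kb to under 0.5 Mb the difference passed with 4 or more starts (-0.29, adjusted p = 0.0381), with counts as deposited (-0.35, adjusted p = 0.0457) and with balancing on interchromosomal contacts (-0.37, adjusted p = 0.0381). From 0.5 to under 2 Mb it passed with the same 3 settings (-0.45, -0.55 and -0.55). A class alone at the smallest p of the exact permutation, 0.00952, has an adjusted p of 0.0762. This was so from 100 kb in the main analysis, so passing also took low p-values in other classes. Counts as deposited also passed at 2 to under 10 Mb (-0.19), at 10 to under 20 Mb (-0.20) and between chromosomes (-0.23), and gave 2 classes in which members differed from other A-compartment bins, against 0. The cause was not tested. From 20 to under 50 Mb the small positive value, 0.04, turned with equal weight of chromosomes (-0.014), without chromosome ends (-0.00016), with counts as deposited (-0.0063) and with balancing on interchromosomal contacts (-0.013). At 50 Mb or more, 0.04 became -0.14 with 8 or more starts and -0.11 with equal weight of chromosomes. The causes were not tested.

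With each library left out in turn, the log2 ratio ran from -0.18 to -0.16 for adjacent bins, -0.31 to -0.29 from 100 kb, -0.53 to -0.46 from 0.5 Mb, -0.18 to -0.08 from 2 Mb, -0.17 to -0.12 from 10 Mb, -0.0079 to 0.0886 from 20 Mb, 0.02 to 0.06 from 50 Mb and -0.21 to -0.17 between chromosomes. From 20 Mb the sign turned when the second 10 h library was dropped (-0.0079), and so it did for the second imminent division library (-0.0057). Member bins called at imminent division against 10 h ran from 0 to 2 between chromosomes and from 0 to 1 at 2 Mb or more, and member DIs from 9 to 53. Member DIs ran from 0 to 11 at pre-S against 10 h and from 0 to 3 at imminent division against pre-S. Without the second imminent division library, whose sex chromosomes were unlike the others, the log2 ratio of imminent division over 10 h was -0.17 for adjacent bins, -0.30 from 100 kb, -0.50 from 0.5 Mb, -0.18 from 2 Mb, -0.15 from 10 Mb, -0.0057 from 20 Mb, 0.04 from 50 Mb and -0.17 between chromosomes. None of the 3 single bins was called, and DI calls over all pairs fell. Part of the 43 member DIs were called and no others, at a member median log2 difference of -0.38 beside 0.02. The Prpf31 pair (-1.35) and the Cfl1 pair (-1.06) were among them, and the pair of MHC class III bins was not (-0.66, edgeR FDR 0.0515). Of the 2 DIs between imminent division and pre-S, the Prpf31 pair was called (-1.20) and the pair of the Daxx and Tnf bins was not (edgeR FDR 0.312). Without any 1 library of 10 h or pre-S, fewer or none of the 8 of pre-S were called. Calls over all pairs fell there too.

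The 2 bins called between chromosomes became 0 with DESeq2, with expected counts from coverage and with no minimum count, and 1 with TMM factors. Over all bins the 9 calls of that contrast became 0, 4, 1 and 9 in the same order. The 1 bin called at 2 Mb or more became 0 with DESeq2 and with no minimum count, beside 1 of all bins with each. With 8 or more starts it was also 0, but no member was left to test, so this 0 says nothing of the call. The 43, 8 and 2 member DIs of the contrasts imminent division against 10 h, pre-S against 10 h and imminent division against pre-S became 0, 0 and 0 with DESeq2. With 8 or more starts, which leaves 3 member pairs, they also became 0, 0 and 0. With TMM factors the first pair of counts became 80 and 29, of which 39 and 8 were among the 43 and the 8. With balancing factors in the offsets, 46 member pairs were weaker at imminent division against 10 h (11.5%, beside 1.57% of all pairs) and 1 was stronger. Of these calls 36 were among the 43. The 8 became 2 (0.501%, beside 0.0329% of all pairs). A filter of 8-fold over the background left 267 member pairs. It changed the 43 to 63 (23.6% of those tested, beside 3.51% of all pairs left). It changed the 8 to 12 (4.49% beside 0.871%) and the 2 to 4 (2 weaker and 2 stronger). The calls under this filter held all of the 43, the 8 and the 2. The same replicate number in different groups was not treated as a pairing. Deviations from the group means correlated between -0.034 and 0.0083. This cannot exclude a pairing, since counting noise also brings such values near 0. A fit with the replicate block gave 39 and 6 member DIs for 43 and 8, and 1 bin called between chromosomes for 2. The test of single bins between chromosomes with 8 or more starts was not run, since 2 bins were left.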
